A study of Mus musculus with 6 samples.

Results

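Genes that mark macrophages, monocytes, neutrophils, dendritic cells and lymphocytes were examined in whole liver of male C57BL offspring at 32 weeks of age. The list holds 47 textbook marker genes in 7 classes, of which 46 were measured among 22180 genes in all, and Spp1 was not analysed here. A member was any gene of the list to which the array annotation gave a probe set with no other gene symbol. The rule takes the brightest probe set of a gene, but 0 members had more than 1 probe set, so no measured value decided which probe set stands for a gene. CR-CD offspring were born to dams fed a chromium-restricted diet through pregnancy and lactation and received the control diet from weaning. CD-CD offspring and their dams received the control diet throughout. Each group had 3 Affymetrix Mouse Gene 2.0 ST arrays, which the labels number 1 to 3, and the sources used here do not state whether the arrays came from separate litters. The diet was given to the dams, so every SD, standard error and p-value treats arrays as independent that may share a litter.

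Kupffer cells are the resident macrophages of the liver. They lie in the sinusoids, where they clear bacteria, aged red cells and immune complexes from portal blood, and most of them descend from fetal precursors and renew in place. When they are lost, monocytes from the bone marrow enter the liver and gradually take on the same marker genes. In RNA from whole liver, which is mainly hepatocyte RNA, fewer cells of a type and less RNA per cell cannot be told apart.

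The promoters of 5 macrophage markers with a fold of at least 1.5 are shown. Each of these genes was highest in CR-CD replicate 2 and lowest in CD-CD replicate 3, and a shared regulator was not tested. Marco and Folr2, with the largest differences of the members, also had promoter entries but are not shown. PU.1, a factor that macrophages need for their development, binds sites with the core GAGGAA. Of 37 members with an entry in the RefSeq promoter table (build GRCm38.p6), 21 held GAGGAA on either strand between 250 bases before and 50 bases after the start, including 14 of 21 Kupffer and pan-macrophage genes, and the share among all 32851 windows was 28.3%. In all, 9 motifs of factors known from myeloid cells were searched on both strands. Members were counted by gene and the shares of all windows by window, so the units differ and the shares are no test. The extended form GAGGAAGT, which contains the core, was found in 4 of the 37 members and in 3.2% of all windows, and the ETS core GGAAGT, which it also contains, in 21 and 23.8%. The E-boxes CATGTG and CACGTG were found in 9 and 1 of the members and in 14.2% and 7.15% of all windows. The MAF site TGCTGAC was found in 2 members and in 4.67% of windows, and the AP-1 site TGANTCA in 5 and 7.81%. The C/EBP palindrome TTGCGCAA was in 0 members and 0.183% of windows, and the looser TTNNGCAA, which contains it, in 5 and 10.8%. Each sequence below is the 250 bases before the start of the gene, 5′ to 3′ on the strand of the gene, and capitals mark GAGGAA or its complement TTCCTC. The windows are chr3:87357631-87357880 (plus strand) for Cd5l, chrX:96293439-96293688 (minus strand) for Vsig4, chr11:46810549-46810798 (plus strand) for Timd4, chr19:12460520-12460769 (plus strand) for Mpeg1 and chr3:96293970-96294219 (minus strand) for Fcgr1. A match is a run of letters and was not tested as a binding site.
Cd5l: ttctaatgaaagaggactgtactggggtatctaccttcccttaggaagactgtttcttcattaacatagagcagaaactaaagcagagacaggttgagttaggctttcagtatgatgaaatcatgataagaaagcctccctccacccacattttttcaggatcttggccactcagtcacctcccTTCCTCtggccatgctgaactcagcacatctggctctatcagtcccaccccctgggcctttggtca
Vsig4: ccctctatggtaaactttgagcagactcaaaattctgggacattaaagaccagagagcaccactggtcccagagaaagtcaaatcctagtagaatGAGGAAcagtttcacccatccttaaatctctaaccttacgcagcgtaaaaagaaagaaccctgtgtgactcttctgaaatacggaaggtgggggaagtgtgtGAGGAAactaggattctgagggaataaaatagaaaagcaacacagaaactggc
Timd4: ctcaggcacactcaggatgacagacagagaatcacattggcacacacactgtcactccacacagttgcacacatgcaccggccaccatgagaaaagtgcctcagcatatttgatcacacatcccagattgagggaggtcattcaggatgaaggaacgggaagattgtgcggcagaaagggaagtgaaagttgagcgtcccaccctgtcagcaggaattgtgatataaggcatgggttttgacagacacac
Mpeg1: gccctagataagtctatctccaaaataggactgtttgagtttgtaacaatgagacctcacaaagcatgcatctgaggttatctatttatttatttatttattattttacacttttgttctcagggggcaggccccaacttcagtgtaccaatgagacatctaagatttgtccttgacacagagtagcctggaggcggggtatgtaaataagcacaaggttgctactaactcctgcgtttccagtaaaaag
Fcgr1: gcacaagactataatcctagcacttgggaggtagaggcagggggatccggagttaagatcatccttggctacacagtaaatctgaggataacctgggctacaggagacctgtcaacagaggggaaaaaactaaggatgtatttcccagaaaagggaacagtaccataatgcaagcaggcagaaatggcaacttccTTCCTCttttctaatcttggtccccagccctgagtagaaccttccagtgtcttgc

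The deposited values are log2 signals, with array medians between 5.48 and 5.54. Values of some probe sets carry more decimals than a single-precision number holds, and this longer format was present in 428 of 33793 probe sets but in 0 of the 46 members. The limma package fitted all 22180 genes, SE is its standard error, and p was adjusted by the Benjamini-Hochberg method, and 329 genes had an adjusted p under 0.05, of which 0 were left when probe sets in the longer format were removed. No member passed the adjusted p, while 0.784% of all genes passed it higher and 0.699% lower in CR-CD. The lowest adjusted p of a member was 0.11 (Mpeg1), and it was 0.949 when the probe sets in the longer format were left out of the fit. The adjusted p-values given below for single genes are over all genes, those in the longer format included, and in the same fit without these no member was below 0.949. At an unadjusted p under 0.05, 13 members were higher in CR-CD and 0 lower, against 3.26% and 3.12% of all genes. The members were chosen with earlier results of these data known, so the shares of all genes beside their counts are description and no test. The methods of the study ask for a 1.5-fold change together with an unadjusted p no larger than 0.05, which 7 members reached, all higher, namely Folr2, Vsig4, Cd5l, Timd4, Mpeg1, Csf1r and Fcgr1. Of all genes, 0.911% met them higher and 0.757% lower, and of the 21878 genes outside the longer format 0.133% and 0.0823%. All 3 CR-CD arrays lay above all 3 CD-CD arrays in 12 members and below them in 0, against 5.63% and 5.77% of all genes. A fold of 1.5 alone was reached by 9 members, against 1.05% of all genes, and the mean was higher in CR-CD in 38 members, against 50.7%. Over the genes outside the longer format, these shares were 2.5% higher and 2.48% lower at an unadjusted p under 0.05, 4.92% and 5.18% without overlap, and 50.6% with a higher mean. Without CR-CD replicate 2, 1 member met the thresholds of the methods, without CD-CD replicate 3 also 1, and that gene was Folr2 both times.

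**Figure D1:**
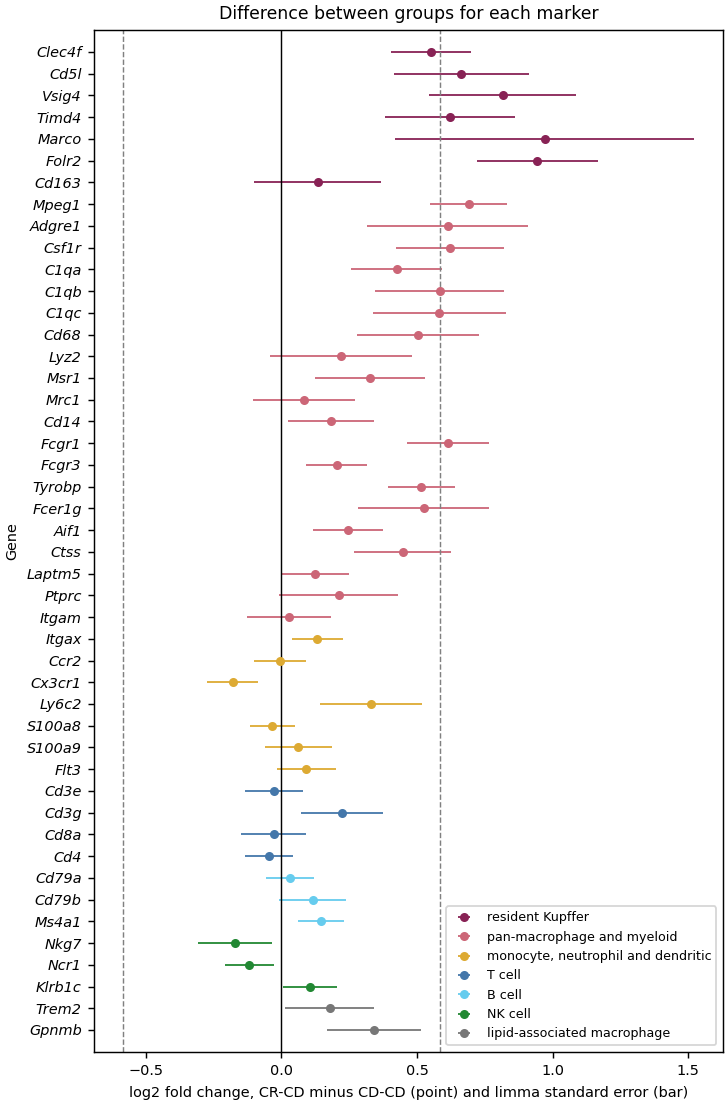
Log2 fold change of each of the 46 markers, CR-CD minus CD-CD (points) with the limma standard error (bars), coloured by class; dashed lines stand at a fold of 1.5 either way. Kupffer and pan-macrophage genes lie to the right of 0, from 0.03 to 0.97, and the monocyte and lymphocyte genes lie between -0.18 and 0.33.

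Resident Kupffer genes had the highest median difference of the 7 classes. All 7 were higher on average in CR-CD, with a median log2 fold change of 0.66 and a range from 0.13 to 0.97, beside a median of 0.0017 over all genes tested. None of the 7 passed the adjusted p, and 5 had an unadjusted p under 0.05. Clec4f, a C-type lectin that in mice is made almost solely by Kupffer cells, had signals of 9.07, 9.60 and 9.29 in CR-CD replicates 1 to 3 and of 8.88, 8.83 and 8.59 in CD-CD replicates 1 to 3. The groups did not overlap, and the log2 fold change was 0.55 (SE 0.15, limma adjusted p = 0.357). Vsig4, a complement receptor that captures opsonized bacteria from the blood, had signals of 8.56, 9.22 and 8.64 in CR-CD and of 8.29, 8.25 and 7.43 in CD-CD. Again the groups did not overlap, with a log2 fold change of 0.82 (SE 0.27, limma adjusted p = 0.637), and CD-CD replicate 3 was well below the other arrays.

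Folr2, the folate receptor beta of tissue macrophages, was at 7.93, 8.58 and 8.25 in CR-CD and at 7.28, 7.69 and 6.96 in CD-CD. Each CR-CD array exceeded each CD-CD array, and the log2 fold change was 0.94 (SE 0.22, limma adjusted p = 0.217), a fold of 1.92. With the replicate number as a block, the adjusted p of Folr2 was 0.0284 (SE 0.13), the 1 call that the block added among the members. This call rests on the genes in the longer format, and without them the adjusted p of Folr2 was 0.467 with the block and 0.952 without it. Cd5l, a scavenger protein that macrophages secrete, gave 8.96, 9.69 and 9.02 in CR-CD against 8.66, 8.88 and 8.15 in CD-CD. Its log2 fold change was 0.66 (SE 0.25, limma adjusted p = 0.721), and only a narrow gap separated the lowest CR-CD array from the highest CD-CD array. Timd4, a receptor for phosphatidylserine on dying cells that marks long-resident Kupffer cells, gave 7.18, 7.91 and 7.19 in CR-CD against 6.79, 7.14 and 6.49 in CD-CD, with a log2 fold change of 0.62 (SE 0.24, limma adjusted p = 0.738). The gap between the groups was narrow here too. Leaving out single arrays changed the differences of Cd5l, Timd4 and Vsig4 by over 1.5 times, while that of Folr2 ran from 0.77 to 1.13. Without CR-CD replicate 2 the log2 fold change was 0.43 for Cd5l and 0.38 for Timd4, and without CD-CD replicate 3 it was 0.54 for Vsig4.

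Marco and Cd163 did not share this pattern. Marco, a scavenger receptor for bacteria and particles, had the largest mean difference of the members, 0.97 (SE 0.55, limma adjusted p = 0.868), but its signals were 8.26, 9.16 and 6.98 in CR-CD and 7.87, 6.74 and 6.88 in CD-CD. CR-CD replicate 3 thus lay close to the lower CD-CD arrays, CD-CD replicate 1 was above it, and the mean difference was 0.46 without CR-CD replicate 2 and 1.55 without CR-CD replicate 3. Cd163, the receptor that removes hemoglobin bound to haptoglobin, was at 7.51, 7.19 and 7.14 in CR-CD and at 7.69, 6.94 and 6.80 in CD-CD. The replicate 1 arrays were the highest of each group, CD-CD replicate 1 above all others, and the log2 fold change was 0.13 (SE 0.23, limma adjusted p = 0.995).

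**Figure D2:**
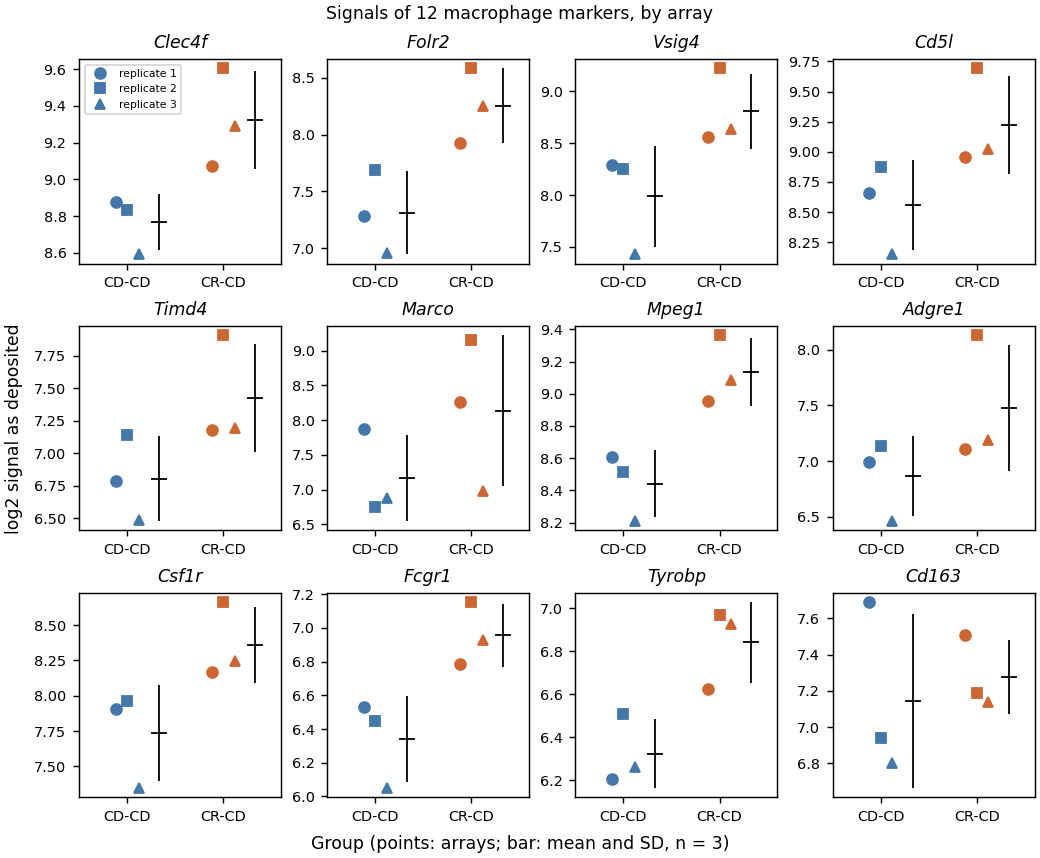
Deposited log2 signals of 12 macrophage markers in each array, with the mean and SD of each group (n = 3) beside the points; the vertical axes differ between panels and do not start at 0. CR-CD replicate 2 is the highest array in 11 of the panels, CD-CD replicate 1 in that of Cd163, and Marco, Adgre1 and Cd163 are the panels in which the groups overlap.

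Among the 20 pan-macrophage and myeloid genes, the median log2 fold change was 0.44, and all 20 differences were above 0, from 0.03 to 0.69. Without CR-CD replicate 2 and CD-CD replicate 3, 15 of the 20 were above 0. The unadjusted p was under 0.05 in 8 of the 20, and the adjusted p in 0. Mpeg1, the pore-forming protein perforin-2 of phagocytes, had the smallest p of all members. It was at 8.95, 9.36 and 9.08 in CR-CD and at 8.60, 8.51 and 8.21 in CD-CD, so that the groups were apart, with a log2 fold change of 0.69 (SE 0.14, limma adjusted p = 0.11). With an intensity trend and robust variances the adjusted p of Mpeg1 was 0.0498 over all genes but 0.995 without the longer format, so that this call rests on the genes in that format. Csf1r, the receptor through which CSF1 and IL-34 keep macrophages alive, was at 8.17, 8.67 and 8.25 in CR-CD and at 7.91, 7.96 and 7.35 in CD-CD. Its groups did not overlap either, and the log2 fold change was 0.62 (SE 0.20, limma adjusted p = 0.589).

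Receptors for antibody and their signalling adaptors differed in the same direction to unequal degrees. Fcgr1, the high-affinity IgG receptor, was at 6.79, 7.15 and 6.93 in CR-CD and at 6.53, 6.45 and 6.05 in CD-CD, a log2 fold change of 0.61 (SE 0.15, limma adjusted p = 0.255) without overlap. Tyrobp, the adaptor DAP12 that couples myeloid receptors to tyrosine kinases, was at 6.62, 6.97 and 6.93 in CR-CD and at 6.21, 6.51 and 6.26 in CD-CD. For Tyrobp, too, no CR-CD array reached down to a CD-CD array, and the log2 fold change was 0.52 (SE 0.12, limma adjusted p = 0.227). Fcer1g, the common gamma chain of Fc receptors, had a difference of 0.52 with a larger standard error of 0.24, and CD-CD replicate 3 at 7.72 lay far below the other arrays, from 8.40 to 9.10. The low-affinity IgG receptor Fcgr3 differed by 0.20 (SE 0.11), with overlapping groups.

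C1qa, C1qb and C1qc encode the 3 chains of complement C1q, which liver macrophages make, and are neighbours on the chromosome. Their log2 fold changes were 0.43, 0.58 and 0.58, with adjusted p-values of 0.749, 0.758 and 0.778 from limma. For C1qb, the signals were 8.59, 9.14 and 8.71 in CR-CD and 8.53, 8.43 and 7.72 in CD-CD. The groups did not overlap in any of the 3 genes, yet the CR-CD replicate 1 value of C1qb stood only 0.06 above that of CD-CD replicate 1, and CD-CD replicate 3 was the lowest array by a wide gap. The difference of C1qb was 0.33 without CD-CD replicate 3, 0.42 without CR-CD replicate 2 and 0.17 without both. Those of C1qa and C1qc were 0.25 and 0.31 without CD-CD replicate 3.

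Adgre1, an adhesion-type receptor long used as a macrophage surface marker, was at 7.11, 8.13 and 7.19 in CR-CD and at 6.99, 7.14 and 6.46 in CD-CD. CD-CD replicate 2 lay above CR-CD replicate 1, and the difference of 0.61 (SE 0.30, limma adjusted p = 0.817) was 0.29 without CR-CD replicate 2 and 0.09 without that array and CD-CD replicate 3. The lysosomal protein Cd68 differed by 0.50, the protease cathepsin S (Ctss) by 0.45, the scavenger receptor Msr1 by 0.33 and the actin-binding protein Aif1 by 0.25 on the log2 scale, all with overlapping groups. Without CD-CD replicate 3 the differences were 0.28 for Cd68, 0.27 for Ctss and 0.29 for Fcer1g. Lysozyme (Lyz2) differed by 0.22, and its probes may also read the near-identical Lyz1. The remaining genes of this class had small differences. These were 0.21 for Ptprc, the leukocyte antigen CD45, 0.12 for Laptm5, a lysosomal protein of blood cells, 0.18 for Cd14, a co-receptor for endotoxin, 0.03 for the integrin Itgam and 0.08 for the mannose receptor Mrc1, which sinusoidal endothelial cells also make.

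Monocyte, neutrophil and dendritic markers showed no common direction. Of 7 genes, 4 were higher and 3 lower on average in CR-CD, with a median log2 fold change of 0.06 and 0 genes at an unadjusted p under 0.05. Cx3cr1, the fractalkine receptor of monocytes, was at 6.26, 6.07 and 6.38 in CR-CD and at 6.35, 6.47 and 6.44 in CD-CD. Its arrays were lower in CR-CD at each replicate number, but the groups overlapped, and the log2 fold change was -0.18 (SE 0.09, limma adjusted p = 0.847). Ly6c2, a surface protein of inflammatory monocytes, was at 4.96, 5.09 and 5.57 in CR-CD and at 4.71, 5.17 and 4.76 in CD-CD. Here CR-CD replicate 3 was the highest and the groups overlapped, with a log2 fold change of 0.33 (SE 0.19, limma adjusted p = 0.872). The probes of Ly6c2 may also read its near-identical neighbour Ly6c1.

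Ccr2, the chemokine receptor that brings monocytes out of the bone marrow, had a log2 fold change of -0.01. The integrin Itgax differed by 0.13 and the growth factor receptor Flt3 of dendritic cells by 0.09. S100a8 and S100a9, adjacent genes whose products form calprotectin in neutrophils, had log2 fold changes of -0.03 and 0.06. In both of these genes and in Flt3, the signal was below the array median in all 6 arrays. That of Ly6c2 was below it in 5 arrays, of Itgax in 4, of Ccr2 in 3 and of Cx3cr1 in 0. The deposited values hold no detection call that would show whether such signals exceed background.

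Lymphocyte markers were mixed in direction. Cd8a, Cd79a, Ms4a1 and Klrb1c were below the array median in all 6 arrays, Cd3g and Ncr1 in 4, Cd4 in 3, and Cd3e, Cd79b and Nkg7 in 0. Of the 4 T cell genes, 1 was higher on average in CR-CD, and the median log2 fold change was -0.03. Cd3g, a chain of the T cell receptor complex, was at 5.26, 5.78 and 5.82 in CR-CD and at 5.42, 5.44 and 5.33 in CD-CD, where the lowest of all 6 arrays was CR-CD replicate 1, so the log2 fold change of 0.22 (SE 0.15, limma adjusted p = 0.911) came with overlap. Cd4, the co-receptor of helper T cells, was at 5.61, 5.45 and 5.54 in CR-CD and at 5.66, 5.63 and 5.44 in CD-CD, a log2 fold change of -0.05 (SE 0.09, limma adjusted p = 0.998). Cd3e, another chain of the same complex, and Cd8a, the co-receptor of cytotoxic T cells, each had a log2 fold change of -0.03.

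B cell markers differed by 0.03 to 0.15, all 3 upward on average. Ms4a1, which encodes CD20, was at 5.16, 5.34 and 5.07 in CR-CD and at 5.08, 5.05 and 5.004 in CD-CD, a log2 fold change of 0.15 (SE 0.09, limma adjusted p = 0.878) with overlap. Cd79b, a signalling chain of the B cell receptor, was at 5.63, 6.04 and 6.04 in CR-CD and at 5.81, 5.72 and 5.84 in CD-CD, a log2 fold change of 0.11 (SE 0.12, limma adjusted p = 0.961). Its CR-CD replicate 1 was the lowest of the 6 arrays, and its partner chain Cd79a differed by 0.03.

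NK cell markers gave 1 difference above and 2 below 0. Nkg7, a granule protein of cytotoxic cells, was at 5.83, 6.35 and 5.999 in CR-CD and at 6.19, 6.16 and 6.34 in CD-CD, a log2 fold change of -0.17 (SE 0.14, limma adjusted p = 0.936). Ncr1, the activating receptor NKp46, was at 5.34, 5.41 and 5.51 in CR-CD and at 5.52, 5.68 and 5.41 in CD-CD, a log2 fold change of -0.12 (SE 0.09, limma adjusted p = 0.933). The groups overlapped in both genes, and Klrb1c, the receptor NK1.1, differed by 0.10 in a signal below the array median in all 6 arrays.

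Trem2 and Gpnmb mark macrophages that take up lipid in steatosis. Gpnmb, a glycoprotein of lysosomes, was at 5.95, 5.34 and 5.68 in CR-CD and at 5.54, 5.11 and 5.29 in CD-CD, a log2 fold change of 0.34 (SE 0.17, limma adjusted p = 0.834). Trem2, a lipid-sensing receptor that signals through Tyrobp, was at 6.57, 5.91 and 6.29 in CR-CD and at 6.06, 6.20 and 5.98 in CD-CD, a log2 fold change of 0.18 (SE 0.16, limma adjusted p = 0.947). In contrast to the Kupffer genes, CR-CD replicate 1 was the highest array for both, and CR-CD replicate 2 was the lowest of the 3 CR-CD arrays for both. The groups overlapped in each gene.

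**Figure D3:**
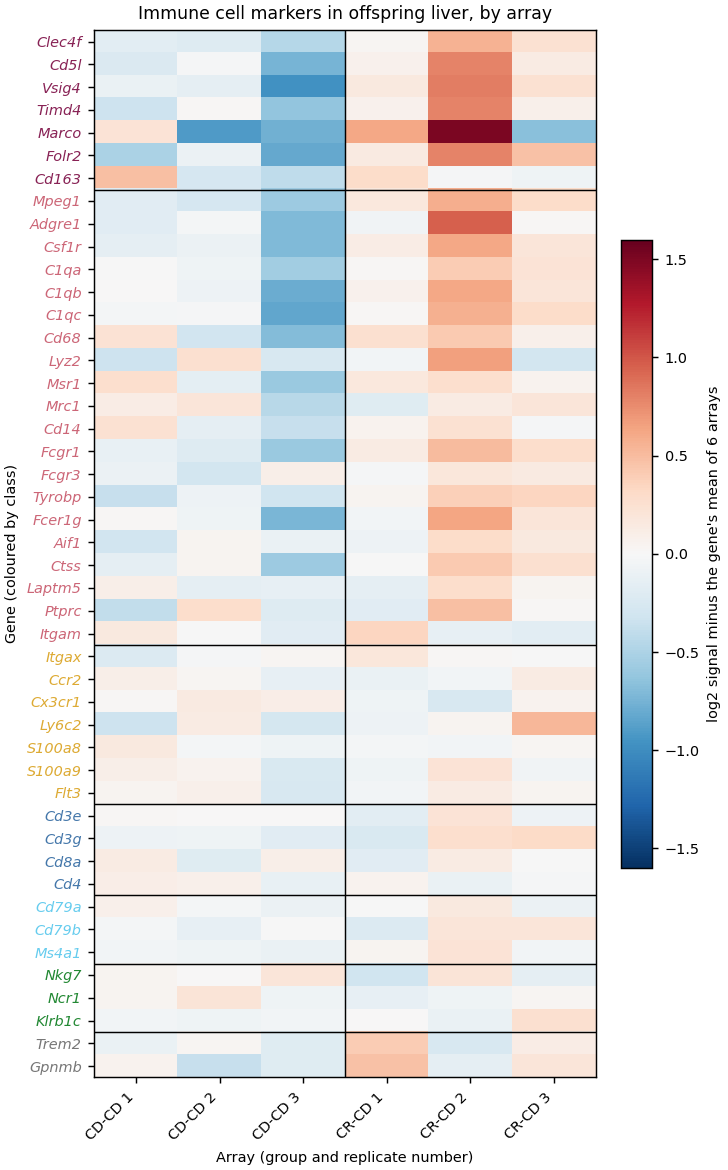
Log2 signal of each marker minus its mean over the 6 arrays, with genes in rows grouped by class and arrays in columns. In the Kupffer and pan-macrophage rows CR-CD replicate 2 is mostly the reddest column and CD-CD replicate 3 mostly the bluest, and the monocyte and lymphocyte rows are pale.

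The macrophage genes moved together from array to array, not only between groups. CR-CD replicate 2 was the highest array in 23 of the 27 Kupffer and pan-macrophage genes and CD-CD replicate 3 the lowest in 20, whereas over all genes these arrays were highest in 14.7% and lowest in 18.7%. As a score, the mean over genes of the log2 signal minus its mean over the 6 arrays, the Kupffer class was at 0.20, 0.75 and 0.06 in CR-CD replicates 1 to 3 and at -0.09, -0.23 and -0.69 in CD-CD replicates 1 to 3. The group means were 0.34 ± 0.37 and -0.34 ± 0.31 (SD, n = 3), and the lowest CR-CD array stood above the highest CD-CD array. For the pan-macrophage class, the scores were 0.03, 0.42 and 0.13 in CR-CD and -0.06, -0.06 and -0.47 in CD-CD. The difference between the groups in the Kupffer score, 0.67, was 0.46 without CR-CD replicate 2, 0.50 without CD-CD replicate 3 and 0.29 without both. For the pan-macrophage score the difference of 0.39 became 0.27, 0.25 and 0.14. No p is given for these scores, because the members were chosen with results of these arrays known.

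Set side by side by replicate number, CR-CD minus CD-CD was 0.29, 0.98 and 0.75 for the Kupffer score and 0.09, 0.48 and 0.59 for the pan-macrophage score. All 3 differences by number were above 0 in 19 of the 27 Kupffer and pan-macrophage genes, against 14.9% of all genes. The labels do not state that like-numbered arrays are pairs. In both scores, and in the 12 of these genes whose groups did not overlap, any pairing gives 3 differences above 0. The score differences by number were -0.01, -0.05 and 0.23 for the monocyte, neutrophil and dendritic score, -0.18, 0.17 and 0.10 for the T cell score, -0.06, 0.26 and 0.09 for the B cell score and -0.16, -0.04 and 0.01 for the NK cell score. Their signs thus changed from number to number, and whether a class differed from another in its change was not tested.

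**Figure D4:**
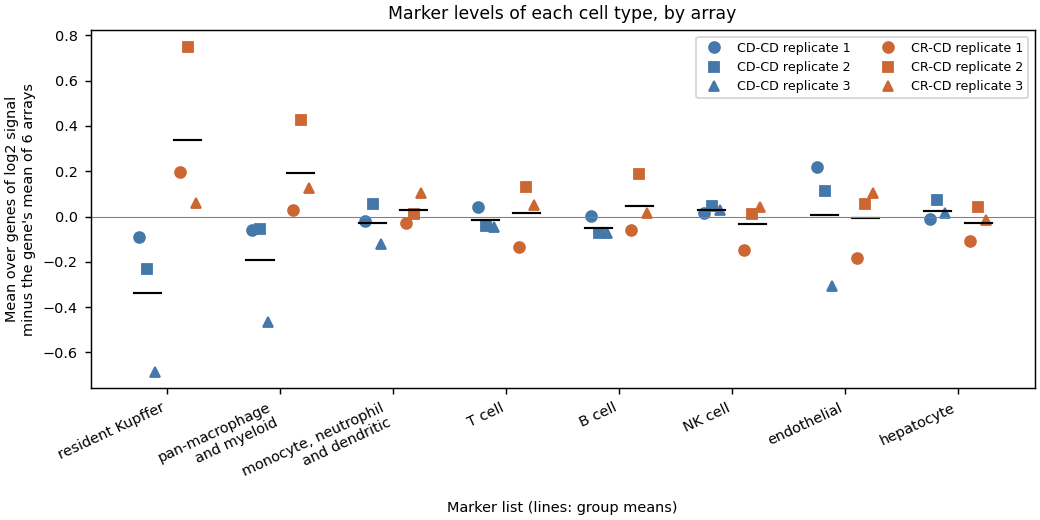
Score of each marker list in each array, the mean over its genes of log2 signal minus the mean of the gene over the 6 arrays; black lines are group means. The Kupffer and pan-macrophage scores of the 3 CR-CD arrays lie above those of the 3 CD-CD arrays, and the other scores overlap, with CD-CD replicate 3 lowest also in the endothelial list.

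Markers of the other liver cells were checked in the same arrays. Of 11 measured hepatocyte genes 4 were higher and 7 lower on average in CR-CD (median log2 fold change -0.03), and their score lay between -0.11 and 0.07 in all arrays. The 12 endothelial genes had a median of 0.01, with scores of -0.18, 0.06 and 0.10 in CR-CD and of 0.22, 0.11 and -0.31 in CD-CD. CD-CD replicate 3 was the lowest array in 9 of these 12 genes, so the low macrophage signals of that array came with low endothelial signals, and their part in the result was not tested. An alternative added after seeing the data took the Kupffer score relative to the endothelial score of the same array. It was at 0.38, 0.69 and -0.04 in CR-CD and at -0.31, -0.34 and -0.38 in CD-CD, a difference of 0.69 between the groups. The endothelial score itself differed by -0.01 between the groups, so this difference could hardly depart from the 0.67 of the Kupffer score. The 12 stellate and fibroblast genes had a median of 0.08 and the 6 bile duct genes of 0.03, and 0 genes of these 4 lists had an unadjusted p under 0.05.

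The lists of further Kupffer genes and of macrophage transcription factors had smaller median differences than the Kupffer and pan-macrophage classes. These lists do not cover every macrophage gene. Of 16 further Kupffer genes, 14 were higher and 2 lower on average in CR-CD with a median log2 fold change of 0.15, and CD-CD replicate 3 was the lowest array in 12 of them. At an unadjusted p under 0.05, 0 of the 16 were higher. Their score was at 0.06, 0.13 and -0.05 in CR-CD and at 0.09, 0.06 and -0.29 in CD-CD, so the groups overlapped. The smallest p belonged to Id3, a transcriptional regulator that Kupffer cells need but hepatocytes and endothelial cells also make, which was lower in CR-CD (log2 fold change -0.62, standard error 0.16, adjusted p = 0.308 from limma). The median of 8 macrophage transcription factors was -0.09, and that of 17 ligands and cytokines was 0.03, with 0 genes at an unadjusted p under 0.05 in either list.

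With the limma p, 29 genes outside the longer number format met the thresholds of the methods higher in CR-CD and 18 lower. The 7 members made up part of the 29, and 0 members were among the 18. The 29 also held Adgre4 (log2 fold change 0.72), Cfp (0.66), Igsf6 (0.62), Ifi30 (0.61) and Ly86 (0.61). These genes are known from myeloid cells but are in none of the marker lists. In each, CR-CD replicate 2 was the highest array and CD-CD replicate 3 the lowest. They were picked after seeing the data and are description only. By unadjusted p, Mpeg1 was the 13th, Folr2 the 16th and Fcgr1 the 19th of the 47 genes. Id3, of the further Kupffer genes, was among the 18 lower genes.

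**Figure D5:**
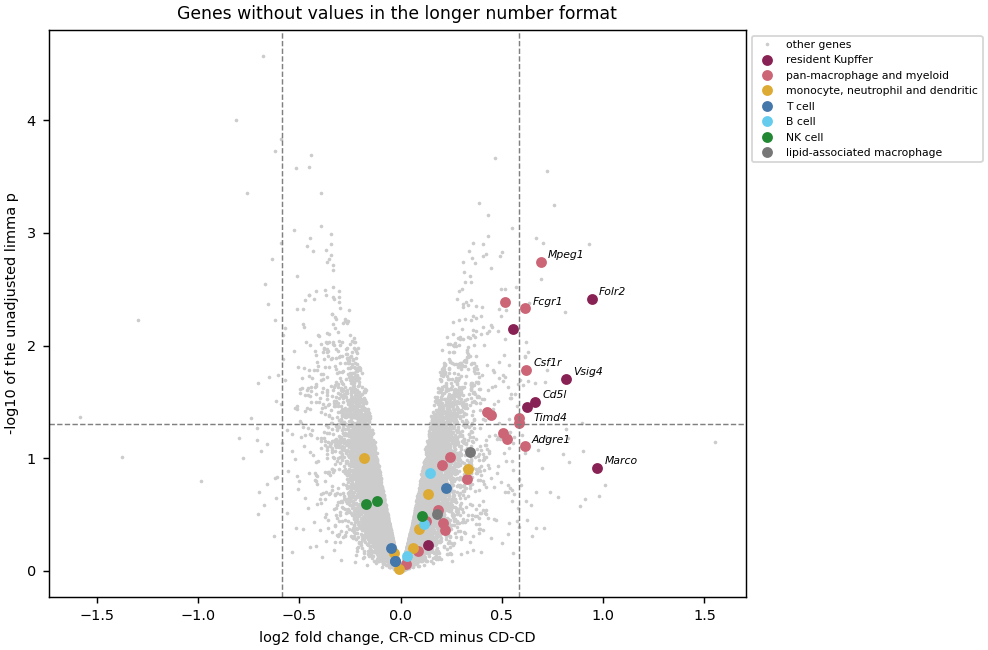
Log2 fold change (CR-CD minus CD-CD) against -log10 of the unadjusted limma p for the 21878 genes outside the longer number format, with the markers coloured by class; dashed lines mark a fold of 1.5 and p of 0.05. The 7 members in the upper right field are Kupffer or pan-macrophage genes, Marco and Adgre1 lie below the p line, and no member lies in the upper left field.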

How the data were processed

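Liver RNA was measured on 6 Mouse Gene 2.0 ST arrays, 3 CR-CD and 3 CD-CD. The deposited table holds log2 signals that the authors processed in GeneSpring 12.5; the summarization, filters and build are not given in the sources used here, and it holds no detection calls. Of 33793 probe sets, 23521 carried exactly 1 gene symbol, 1820 several and 8452 none, and the brightest of each gene gave 22180 genes. The precision is limited by the 3 arrays per group, and 0 columns were left out.

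Linear models without covariates were fitted to every gene (limma 3.58.1, R 4.3.3), with eBayes moderation and Benjamini-Hochberg adjustment over all genes. Counts at a fold of 1.5 with unadjusted p of 0.05 follow the thresholds of the methods, with the limma p in place of the t-test. Scores and figures were made in Python 3.11.15. The fit was tested on simulated data. The members, the 14 other marker lists and the tests were chosen with earlier results of these data known. Full values are given for members with a fold of at least 1.5 and for the 2 with the smallest unadjusted p of each class, and other values describe the pattern. From each other list the gene with the smallest p is named.

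After the group means were subtracted, like-numbered arrays correlated at 0.41, 0.21 and 0.20, all over 0.1, and the numbers were taken as pairs in an alternative. Of the unlike-numbered pairs, CR-CD replicate 3 with CD-CD replicate 2 correlated at 0.26, above the like-numbered values of 0.21 and 0.20, and CR-CD replicate 2 with CD-CD replicate 3 at 0.11. Other settings were quantile normalization, the methods' t-test, robust variances with an intensity trend, median centring, a filter at the 40th percentile, other handling of several probe sets, removal of the longer number format, and leaving out arrays. With 3 against 3 arrays an exact permutation test of a single value cannot go below p = 0.1. Promoter sequences are from RefSeq (GRCm38.p6). Spp1 was not analysed here.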

Additional observations from a re-analysis of the deposited data

How the results depend on the processing

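Of the 7 members at a fold of 1.5 and unadjusted p of 0.05, the methods' t-test called 3 (Fcgr1, Folr2 and Mpeg1), and leaving out 1 array gave 1 to 13. Members at the adjusted p numbered 0, but 1 with an intensity trend and robust variances (Mpeg1) and 1 with the replicate block (Folr2, adjusted p = 0.0284), which also gave 8 members at both thresholds, Adgre1 added, and no other change of call among the members. Without the longer format both of these settings, combined with it after seeing the data, gave 0 members and 0 genes at the adjusted p. Genes at the adjusted p numbered 329 in all, 0 without the longer format, and 213 without CR-CD replicate 2 and CD-CD replicate 3, an alternative chosen after seeing the data. That alternative also gave 1 member at both thresholds (Folr2), a Kupffer score difference of 0.29 and a pan-macrophage one of 0.14, and turned the log2 fold changes of Lyz2 (-0.13), Mrc1 (-0.16), Cd14 (-0.032), Laptm5 (-0.024), Ptprc (-0.025), S100a9 (-0.14), Flt3 (-0.060) and Cd79a (-0.077). The NK cell score difference was -0.14 with the filter at the 40th percentile. The causes were not tested.

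When 1 array was left out, genes at the adjusted p numbered 290 to 355, the Kupffer score difference was 0.46 to 0.81 and the pan-macrophage one 0.25 to 0.47. Member differences changed sign in 20 instances and kept it in 256. The log2 fold change ranged over -0.076 to 0.044 for Ccr2, 0.044 to 0.35 for Cd14, -0.037 to 0.41 for Cd163, -0.14 to 0.055 for Cd3e, -0.037 to 0.088 for Cd79a, -0.13 to 0.053 for Cd8a, -0.015 to 0.15 for Flt3, -0.14 to 0.12 for Itgam, 0.011 to 0.23 for Laptm5, -0.055 to 0.42 for Lyz2, -0.12 to 0.20 for Mrc1, 0.025 to 0.41 for Ptprc, -0.079 to 0.036 for S100a8 and -0.046 to 0.12 for S100a9. Signals below the array median, without detection calls, limit what the 7 members below it in all 6 arrays can show. The same holds in part for members below it in some arrays, such as Ly6c2 in 5.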

Other observations

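Further lists of immune genes outside the members had medians near 0. The median log2 fold change was 0.02 over 16 other monocyte and neutrophil genes, 0.02 over 11 T cell genes, -0.02 over 11 B and plasma cell genes, -0.01 over 12 NK and cytotoxic genes, 0.03 over 9 dendritic cell genes and 0.02 over 8 genes of lipid-associated macrophages, and 0.05 over 4 red cell and platelet genes. None of these genes passed the adjusted p from limma, and 1, Bst2, an interferon-induced protein that tethers virus particles to the cell, had an unadjusted p under 0.05 (log2 fold change 0.30, standard error 0.11, adjusted p = 0.701 from limma). The genes with the smallest p in the other lists were Csf3r (0.17), Cd5 (0.23), Bank1 (0.17), Gzmb (0.16), Lpl (0.48) and Itga2b (0.06), each as a log2 fold change. Among the macrophage transcription factors this gene was Tfec (-0.15), and among the ligands and cytokines it was the chemokine Ccl7 (-0.30). In the lists of other liver cells these genes were Hnf4a (-0.23), Tie1 (-0.20), Lum (0.32) and Cldn7 (-0.17).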
